A study of Drosophila melanogaster with 19 samples.

Results

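Of the 5286 back-splice junctions listed in S2 cells or in the unstranded fly head libraries, 509 were listed in both, at the same chromosome, start, end and strand. They were 39.8% of the 1280 junctions of S2 cells and 11.3% of the 4515 junctions of heads. S2 is a cultured Drosophila melanogaster line of embryonic origin. It gave 1 library treated with RNase R and 1 mock library, with no further replicate. The heads came from flies of the Canton-S background that carried C4, a polymerase II mutation that slows elongation (called slow), or from wild-type Canton-S flies (WT). Sample titles add the number 29 or 18, which the labels leave unexplained and which is used here only as a title number. The 4 head groups slow29, WT29, slow18 and WT18 had 2 RNA samples each, and each RNA sample gave 1 RNase R and 1 mock library, 16 head libraries in all. RNase R was applied at 3 units per µg for 15 min at 37 °C, ribosomal RNA was removed with Ribominus, and 1 more WT head library kept the strand of the RNA. The labels do not state whether replicates 1 and 2 are separate lots of flies. The p-values therefore measure the spread between samples that could be technical repeats.

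A circular RNA forms when the spliceosome joins the end of a downstream exon back to the start of an upstream one or of the same exon. The closed molecule has no free ends and persists where linear RNA is degraded, which is why RNase R, an exonuclease that digests linear RNA from its 3′ end, is used to enrich it. Circular RNAs are abundant in the fly nervous system. In Drosophila a circle from the second exon of muscleblind and one from laccase 2 (straw) are standard examples.

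The members were selected on listed reads, so their number and their presence in both materials are descriptions. A junction was listed when its reads over the libraries of a table came to 2 or more. At that edge, 137 members had 2 reads in S2 cells and 70 had 2 reads in heads. Just outside it, 437 junctions listed in S2 cells and not in heads had 2 reads, and so had 1491 listed in heads and not in S2 cells. The median member had 4 reads over the 2 S2 libraries and 15 over the 16 head libraries, against 2 S2 reads in S2-only junctions and 4 head reads in head-only junctions. Reads in all 16 head libraries were found for 25 members, and 143 members had 5 or fewer head reads in all. Of the members, 386 (75.8%) were listed in both head replicate tables, against 45.9% of the 4006 head-only junctions, 63 in the table of replicate 1 alone and 60 in that of replicate 2 alone. No S2 junction had a head counterpart at the same position on the opposite strand. With both ends allowed to differ by up to 10 bases, 517 junctions were shared.

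The share of listed junctions that had a counterpart in the other material went up with reads in heads and reached a plateau in S2 cells. Among head junctions, 5.03% of those with 2 to 4 reads were also listed in S2 cells, 20.7% of those with 20 to 49 reads and 46.7% of those with 200 to 999 reads. All 7 head junctions with 1000 or more reads were listed in S2 cells. Among S2 junctions, 29.8% of those with 2 to 4 reads were also listed in heads, then 61.3% of those with 5 to 9 reads and 66.7% of those with 200 to 999 reads. Of the 12 S2 junctions with 200 to 999 reads, 4 had no listed head read.

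**Figure D1:**
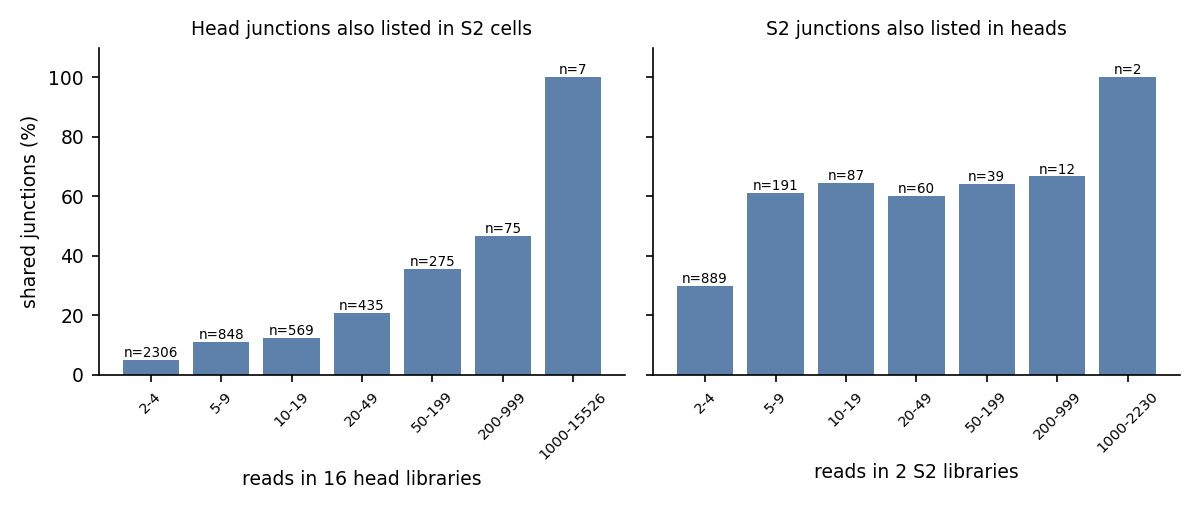
Percent of junctions that were shared, by their reads in the 16 head libraries (left) and in the 2 S2 libraries (right), with the number of junctions above each bar. The share climbs to 46.7% at 200 to 999 head reads and stays between 60.0% and 66.7% from 5 to 999 S2 reads.

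The shared junctions had a shorter median span than junctions of heads alone, with smaller shares of very short and very long spans. They matched exon ends by length more often. Their span, the distance on the genome between the joined ends, had a median of 830 bases (quartiles 397 and 1545), against 1095.5 bases in head-only junctions (lower quartile 336) and 287 bases in S2-only junctions. Spans over 10 kb were 2.75% of members, against 9.96% of head-only and 11.4% of S2-only junctions. The length equalled that of 1 annotated exon of the host gene for 112 members (22.0%), and that from the start of an exon to the end of a later one for 271, so that 383 (75.2%) matched exon ends. The corresponding match was 62.4% in head-only junctions, with 9.56% single exons, and 19.8% in S2-only junctions, with 5.06% single exons. Lengths were compared with the present annotation, since the positions are of build dm3 (counted from 1), and 24 members had no host in that annotation. Spans of 200 bases or less were 12.2% of members, 16.8% of head-only and 33.3% of S2-only junctions. Members had a median of 15 head reads against 4 in head-only junctions, and spans and matches were not compared at like reads.

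Chromosome 4, the small and largely heterochromatic chromosome, held 26 members (5.11%), and 5.14% of head-only junctions lay there. The heterochromatic and unplaced scaffolds held 27 members (5.30%), against 3.10% of head-only junctions. The longest members joined points over 100 kb apart. They were 5 junctions, labelled Msp-300, CG32377, CG34383, Dhc93AB and Ten-a, and the first joined 2L:816665 to 2L:8042117, which lie 7225453 bases apart.

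In the library that kept RNA strand, a further sample of WT heads, 124 of the 447 listed junctions (27.7%) and 1262 of the 2599 reads (48.6%) belonged to members. Stranded reads were listed for 24.4% of members and for 7.14% of head-only junctions, and none was on the strand opposite to a member. Members had a median of 15 unstranded head reads against 4 in head-only junctions, and these shares were not compared at like reads.

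Members came from 347 host genes by the deposited symbols, of which 339 were matched to a gene identifier. S2 junctions named 645 hosts and head junctions 1689. The 416 hosts in both were 64.5% of the S2 hosts and 24.6% of the head hosts, and 69 of them had junctions in both materials but no shared one. One member came from 261 hosts, 2 members came from 56 and 3 or more from 30. pan (pangolin, the TCF factor of Wnt signalling) had the most, with 8 shared junctions, which were all of its 8 S2 junctions, among 28 in heads. CG17646, a gene of the ABC transporter family, had 6 shared junctions. With that label S2 cells listed 32 junctions, a few of them on the opposite strand, and heads listed 6. All 6 of heads were among the 32.

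Which circle of a gene had most reads was often different. Among 49 hosts with several junctions and 20 or more reads in each material, the leading junction was the same in 30 and different in 19. foxo, the forkhead factor of insulin signalling, is an example. Its leading S2 junction, the single exon 3R:9892263-9892584, had 196 S2 RNase R reads and none in heads. A member with the same start, 3R:9892263-9892874, had 6 S2 RNase R reads but between 20.5 and 42.0 reads per 10000 (median 29.5) in the 8 RNase R head libraries. Counts are given here as reads per 10000 listed back-splice reads of a library. Sap47, which encodes a synapse-associated protein, led with a member in S2 cells, 3R:11779880-11782029, at 92 RNase R reads. In heads that member had 1.44 ± 0.725 reads per 10000 (SD, n = 8), and the leader was 3R:11779880-11783641 at 15.4 ± 3.15, not listed in S2 cells. Of the 771 S2-only junctions, 128 (16.6%) used a start or an end that a head junction also used, and 295 of the 4006 head-only junctions (7.36%) did so with S2 junctions.

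Host genes on lists of cell markers gave the labels a limited check, because a back-splice count is not the expression of its host. Of 53 synaptic and ion channel genes, 4 were hosts in S2 cells (Csp, DopR, plexA and unc-13) and 41 in heads. brp, Syt1, para and Rdl, which encode parts of the synapse or ion channels, had no S2 reads and 10, 6, 24 and 4 head junctions. Photoreceptor genes gave 2 S2 hosts and 17 head hosts, muscle genes 1 and 12, glial genes 1 and 3, and fat body and cuticle genes 1 (CG42345) and 7. Hemocyte and S2 cell markers gave 7 S2 hosts and 20 head hosts. Over all genes there were 645 S2 hosts and 1689 head hosts, from 2 S2 and 16 head libraries. Beside these totals the host counts of the hemocyte and S2 cell markers did not set S2 cells apart. srp, the GATA factor of blood cells, was among the S2 hosts, while Hml and NimC1 had head junctions only and He and eater had none. Members from these lists were 4 for synaptic genes (1 of plexA and 3 of unc-13), 2 for photoreceptor genes and 7 for hemocyte genes, with none for muscle or glia. Heads hold many cell types, so fewer cells of a type and less RNA per cell cannot be told apart in these libraries.

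Shared junctions took most of the S2 reads and between 39.1% and 53.6% of the reads of a head library. In S2 cells they held 10557 of 14874 RNase R reads (71.0%) and 2949 of 4421 mock reads (66.7%). In heads the share was between 45.4% and 53.6% in the 8 RNase R libraries and between 39.1% and 49.4% in the 8 mock libraries. Both S2 libraries lay above every head library. Membership needed a listing in both materials, listing rose with reads, and heads had 16 libraries against 2 of S2 cells. The higher share in S2 cells, with or without CG17646, is therefore a description that follows in part from the rule. CG17646 took 30.3% of all S2 RNase R reads over the 32 junctions with its label. A few of these lay on the strand opposite to its members, with at most 15 S2 RNase R reads each. Without that gene in members and totals the S2 shares were 71.9% with RNase R and 68.3% in mock, above 45.3% to 53.6% and 39.1% to 49.4% in the corresponding head libraries.

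**Figure D2:**
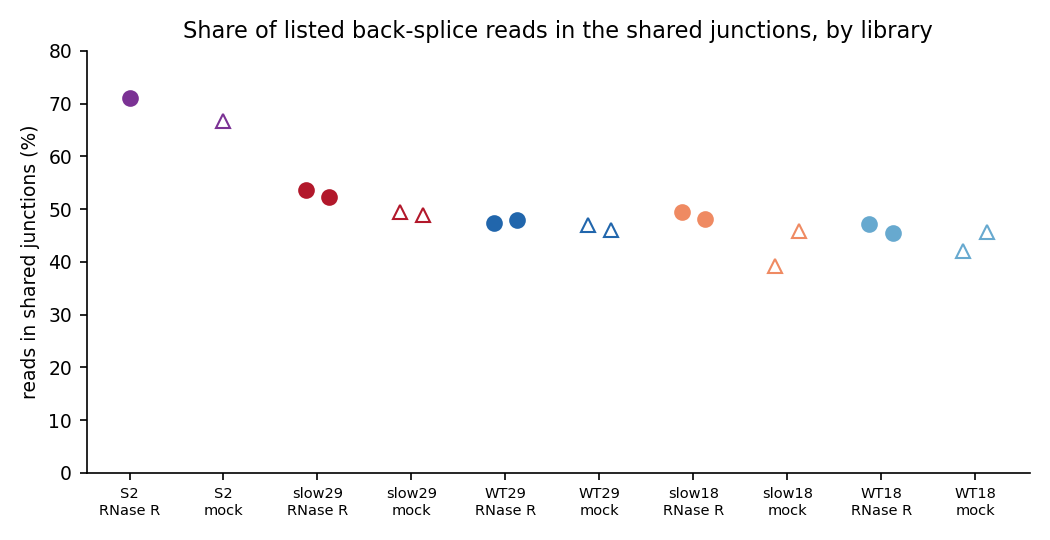
Percent of each library's listed back-splice reads that fell on the 509 shared junctions, with filled circles for RNase R and open triangles for mock libraries. The 2 S2 libraries stand at 71.0% and 66.7%, and the head libraries lie between 39.1% and 53.6%.

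Across RNA samples of heads the share was 48.9 ± 2.74% after RNase R and 45.5 ± 3.42% in mock (SD, n = 8), higher after RNase R in 7 of 8 samples. The difference was 3.41 ± 3.34 percentage points (exact two-sided sign-flip permutation test p = 0.0156, 0.0476 adjusted over the 5 comparisons of this share). Without the 5 members that span over 100 kb it was 6.86 points (exact sign-flip p = 0.00781). Of the members, 490 had S2 RNase R reads and 310 had S2 mock reads, so the rule drew largely on RNase R reads. The p-values of the RNase R difference do not allow for this, and that difference is given as a description. In RNase R libraries the share was 53.6%, 52.2%, 49.5% and 48.1% in slow heads and 47.3%, 47.9%, 47.2% and 45.4% in WT heads. No slow library fell within the WT range, and the difference was 3.87 points (exact permutation p = 0.0286, the smallest that 4 against 4 allow; adjusted 0.0476). The slow libraries exceeded the WT libraries of the same title number and replicate number by 6.35, 4.29, 2.25 and 2.61 points. The difference depended on 1 member. Without the mbl junction described next, in members and in totals, it was 0.778 points (exact permutation p = 0.0571), and the RNase R difference was 2.08 points (p = 0.0859). Without the 5 long members the difference by genotype was 3.80 points (exact permutation p = 0.0571). Leaving out any 1 sample kept the slow libraries higher, by 2.95 to 4.80 points, with an exact permutation p of 0.0571 each time, the smallest that 3 against 4 libraries allow.

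In mock libraries the share was 45.8 ± 4.73% in slow heads and 45.2 ± 2.15% in WT heads (SD, n = 4 each), which overlapped (exact permutation p = 0.829). By title number it was 47.8 ± 1.58% in the 29 and 43.2 ± 3.19% in the 18 mock libraries (SD, n = 4 each, exact permutation p = 0.0286, adjusted 0.0476). The difference was 4.68 points, or 2.15 points without that mbl junction in members and totals (exact permutation p = 0.257), and 3.91 points without the 5 long members (exact permutation p = 0.2). In RNase R libraries the share was 50.2 ± 3.14% in the 29 and 47.6 ± 1.68% in the 18 libraries (exact permutation p = 0.229).

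The members with most reads were largely different in the 2 materials. Among the 10 junctions with most RNase R reads, 8 in S2 cells and 9 in heads were members, but only 5 junctions were in the top 50 of both. Over the 85 members with 10 or more reads in each material, the ranks of the levels after RNase R had a Spearman correlation of -0.03 (a description across junctions that share their libraries and so are not independent). With 350 members at 10 or more RNase R reads over both materials, 109 were at least 2-fold above the mean and above all 8 head libraries in S2 cells, and 69 were as far below. Over all 1346 junctions so compared these shares were 11.9% above and 29.8% below. In mock libraries 36 of 134 members were above and 22 below, against 20.3% and 16.6% of all 301 junctions. The rule used the same reads, so nothing is read from the contrast.

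CG17646 gave the junction with most reads in S2 cells, 2L:1741660-1742260, which runs from the start of an exon to the end of a later one. It had 1935 reads, or 1301 per 10000, in the S2 RNase R library. In RNase R heads it had between 3.95 and 24.6 reads per 10000, with a median of 8.73. The S2 level was 114.8 times the head mean of 11.3 ± 8.09 (SD, n = 8). Other circles from the same start had 693 S2 reads (end 1746029, 6 reads in all in RNase R heads) and 318 S2 reads (end 1743779, 25 head reads). The CG17646 members together held 20.9% of S2 RNase R reads and between 0.072% and 0.352% of the reads in RNase R heads.

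The single-exon circle of CG11299 (Sesn, the stress-response protein sestrin), 2R:19609733-19610398, had 568.1 reads per 10000 in S2 cells and between 3.599 and 9.80 in RNase R heads. Its median there was 4.78, so all heads were far below S2 cells. CG33232 (Svil, the actin-binding supervillin), 3L:2484564-2485228, had 330.1 reads per 10000 in S2 cells, and its 8 RNase R heads were within 3.10 and 5.40 with a median of 3.52. The secretory-pathway calcium pump gene SPoCk had a circle at 3L:22770211-22771924 with 147 reads per 10000 in S2 cells against 0 to 4.44 in RNase R heads. CG4266 (Isha), 2R:17053064-17053379, was less uneven, with 183 in S2 cells and 5.40 to 29.3 in heads (median 12.6). The junction 2L:17863937-17864685 has no host label. It had 563 S2 RNase R reads, and only 3 reads in RNase R heads, in 2 libraries.

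At the head end, the single-exon circle of mbl (muscleblind, a splicing regulator), 2R:13162915-13163568, had 56 S2 RNase R reads, or 37.6 per 10000, and ranked 42 among S2 junctions. It was the leading member in all 16 head libraries. In RNase R heads it had between 898 and 2081 reads per 10000 and a median of 1271. The S2 level was 0.0269 of the head mean of 1397 ± 428 (SD, n = 8). scro (scarecrow, an NK homeobox factor), 3LHet:209156-209624, had 2 S2 RNase R reads, or 1.34 per 10000, against 171 to 214 with a median of 182 in RNase R heads. CaMKI, a calcium and calmodulin dependent kinase, had 12.8 reads per 10000 in S2 cells and 179 to 308 in heads at 4:470550-471135. Ogt (sxc, the O-GlcNAc transferase), 2R:1203774-1208120, had 8.07 in S2 cells and 57.4 to 117 in heads, and p120ctn, a catenin partner of cadherin, 2R:494269-494825, had 1.34 in S2 cells and 35.9 to 81.9 in heads. Each of these head ranges lay wholly above the S2 level.

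Of the 12 members with most reads in RNase R heads, CG42345, Dbp80 and plexA differed least between S2 cells and heads. CG42345 (stw, straw or laccase 2, a cuticle oxidase), 2R:1311255-1311744, ranked 16 in S2 cells and 2 in heads. It had 87.4 reads per 10000 in S2 cells and between 148 and 554 in RNase R heads, with a median of 299. Dbp80, a DEAD-box RNA helicase, 3LHet:2454979-2455331, had 84.0 in S2 cells and 160 to 297 in heads (median 216). plexA (PlexA, a semaphorin receptor), 4:1042868-1044306, had 45.7 in S2 cells and 57.4 to 99.9 in heads (median 85.7). All 3 were below the whole head range in S2 cells. CG42345 and Dbp80 were also among the 6 members with the lowest S2 to head ratio. These were drawn from the 38 members with 20 or more RNase R reads in each material.

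**Figure D3:**
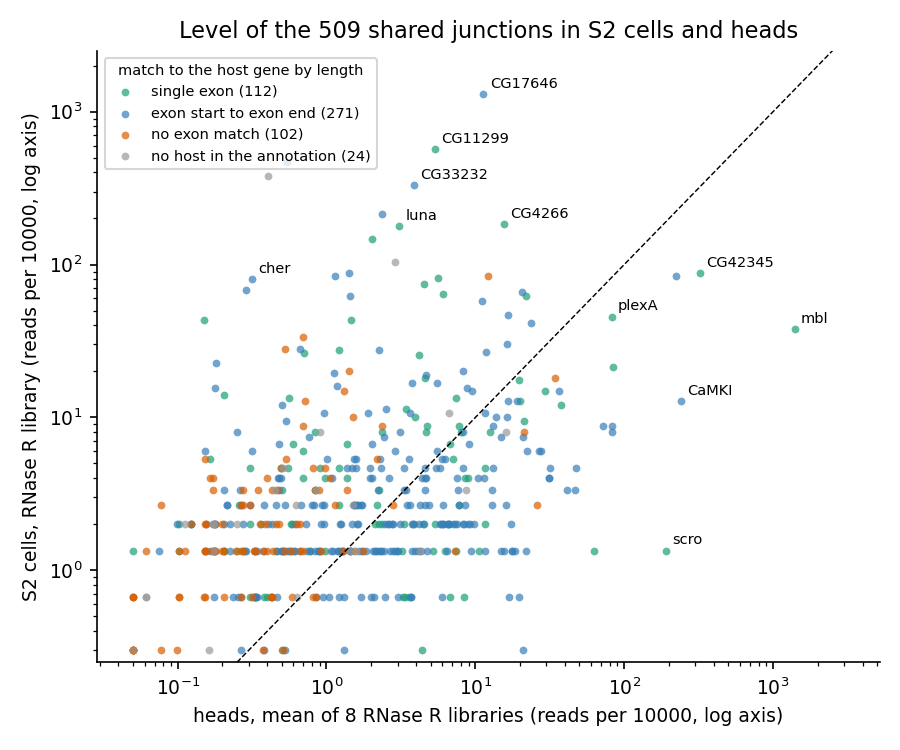
Reads per 10000 of each shared junction in the S2 RNase R library (vertical) and the mean of 8 RNase R head libraries (horizontal), both on log axes, with values under 0.3 and 0.05 drawn at those limits and a dashed line where the levels are equal. The CG17646 junction stands at 1301 in S2 cells and 11.3 in heads, and the mbl junction at 37.6 in S2 cells and 1397 in heads.

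RNase R was compared with mock in heads with edgeR's quasi-likelihood test over all 1354 testable junctions, with the RNA sample as a block and Benjamini-Hochberg adjustment over all of them. Of 298 members tested, 11 were higher after RNase R and 19 were lower, or 3.69% and 6.38%, against 1.92% and 5.47% of all junctions tested (7.39% called in either direction). Among those higher, vir-1, ttv and CG17090 had 37, 80 and 41 RNase R reads and 0 mock reads. They passed the minimum of 10 reads on RNase R reads alone, so nothing is read from the count of 11. Members had more reads than other junctions. With 50 or more reads, 12.9% of 140 members and 12.96% of all 355 junctions were called, so the members' count stood at the background. The median log2 change was 0.38 in members and 0.41 over all tested, and changes are relative to other back-splice reads. Scaling moved this: the median over all was 0.26 to 1.12 under the other scalings, and with TMM over all tested junctions 86 members were higher and 11 lower. RLE size factors gave 22 higher and 16 lower, listed totals alone 16 higher and 17 lower, and TMM over the 100 junctions with most summed reads 8 higher and 21 lower.

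Circles of known genes were among those that gained. The CaMKI junction at 4:470550-471135 had between 179 and 308 reads per 10000 after RNase R (median 247) and between 56.5 and 160 in mock (median 103), with no overlap. It was higher in 8 of 8 samples, with a log2 fold change of 1.14 ± 0.18 (SE, edgeR adjusted p = 2.18e-08). A second CaMKI junction with the same end, 4:470868-471135, was higher by 1.27 ± 0.41 (adjusted p = 0.0352). The CG42345 circle had 148 to 554 reads per 10000 after RNase R (median 299) and 79.8 to 320 in mock (median 192). These ranges overlap, but all 8 samples were higher after RNase R (log2 fold change 0.71 ± 0.17, adjusted p = 0.000557).

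Smaller members gained as well. Stim, the calcium sensor of the endoplasmic reticulum, X:15830832-15831064, had 9.57 to 64.8 reads per 10000 after RNase R and 0 to 28.3 in mock, with medians of 22.9 after RNase R and 2.92 in mock (log2 fold change 1.35, edgeR adjusted p = 0.00439). CG13784, 2L:7209349-7209653, had medians of 20.9 after RNase R and 5.13 in mock (2.08, adjusted p = 0.00107), and the CG40084 (uex, a metal transporter family gene) junction 2RHet:3174710-3175043 had medians of 81.7 after RNase R and 39.4 in mock (0.86, adjusted p = 0.00439). The circles of Eps-15, an endocytic adaptor, 2R:20659248-20660318, and Dbp80 were higher by 1.27 and 0.56 in 8 of 8 samples (adjusted p = 0.00900 and 0.0205). ttv, which encodes a heparan sulphate polymerase, 2R:10450516-10452578, had 80 reads after RNase R and none in mock, at least 3.62-fold higher against 3 reads over the mock group, and so entered the test on its RNase R reads alone. The calls of Stim, Eps-15 and Dbp80 rested on single RNA samples, each left out with both of its libraries. That of ttv had an adjusted p of 0.0640 with DESeq2. Stim had an adjusted p of 0.0551 without replicate 1 of WT29 and Eps-15 of 0.0547 without replicate 2 of WT18, and Dbp80 had 0.0518 without replicate 2 of slow18 and 0.0528 without replicate 2 of slow29. Without the RNA sample in the model, the edgeR adjusted p was 0.0758 for Stim, 0.162 for Dbp80 and 0.0628 for the CG40084 junction. With TMM over the 100 junctions with most summed reads, Dbp80 had 0.1435.

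The largest losses were in members with no match to exon ends. The long junction labelled Msp-300, 2L:816665-8042117, had between 1.20 and 26.7 reads per 10000 after RNase R (median 10.5) and between 91.3 and 604 in mock (median 344). All 8 samples were lower (log2 fold change -4.96 ± 0.20, edgeR adjusted p = 7.91e-129). Another junction with that label, 2L:5168404-5168504, lies between the ends of the long one. The label therefore need not name a gene at either end of it. vsg, 3L:9709673-9709782, had 0 to 2.48 after RNase R and 8.75 to 57.1 in mock (-4.54, adjusted p = 4.45e-18), and Cam (calmodulin), 2R:8161430-8161543, had 0 to 0.900 after RNase R and 5.84 to 44.4 in mock (-5.05, adjusted p = 5.68e-17). The ranges of these 3 junctions do not overlap. Dhc93AB (a dynein heavy chain), whose ends lie 4493206 bases apart, fell by 3.67 on the log2 scale, and pAbp (the poly(A)-binding protein), 2R:14031048-14031185, fell by 3.16. betaTub56D, a beta tubulin with close relatives in the genome, fell by 3.63, and how reads matching several copies were counted is not given. By class, 8 of 23 members without an exon match were lower and 0 higher, with a median of -0.43. Of 264 exon-matched members 11 were higher and 9 lower, with a median of 0.42. The 11 include vir-1, ttv and CG17090, which entered on RNase R reads alone, so counts of higher members are not compared between classes. Head-only junctions had 33 of 112 lower without a match, and 12 higher and 19 lower of 889 with one.

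Some losses were at exon ends. The single-exon plexA circle had 57.4 to 99.9 reads per 10000 after RNase R (median 85.7) and 188 to 271 in mock (median 230). The groups do not overlap (log2 fold change -1.52 ± 0.17, edgeR adjusted p = 1.81e-17, lower in 8 of 8 samples). zfh2 (a zinc finger and homeodomain factor), 4:542099-547146, had medians of 1.36 after RNase R and 12.6 in mock (-3.001, adjusted p = 1.25e-07). CG9935 (Ekar, a kainate-type glutamate receptor), 4:659641-661362, had medians of 19.4 after RNase R and 37.2 in mock (-1.40, adjusted p = 6.33e-06), and lost its call with TMM over all tested junctions (-0.58, adjusted p = 0.107). Smr, a nuclear corepressor, fell by 1.95 (adjusted p = 0.00109), with medians of 4.22 after RNase R and 11.96 in mock.

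In S2 cells RNase R and mock had 1 library each, so there is no test, and intervals cover counting error only. Of 127 members with 10 or more reads, 31 were 2-fold or more higher after RNase R and 16 lower, or 24.4% and 12.6%, against 25% and 21% of all 200 junctions. The median ratio was 1.41 in members and 1.29 over all. Exact 95% intervals lay wholly above 1 for 20 members and below 1 for 11. The CG42345 circle had 130 RNase R reads and 15 mock reads, a ratio of 2.58 (1.505 to 4.74) per 10000 reads. Dbp80 had a ratio of 2.32 (1.38 to 4.19), CG4266 of 2.19 (1.55 to 3.17) and the leading CG17646 junction of 1.95 (1.72 to 2.21). CaMKI had 19 reads with RNase R and none in mock. On the other side, Msp-300 had 125 RNase R and 357 mock reads, a ratio of 0.104 (0.0842 to 0.128), and plexA 68 and 34 reads, a ratio of 0.595 (0.388 to 0.926).

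The S2 ratio and the head change went together across members. For the 101 members with both values, the Spearman correlation was 0.55 and Pearson's r 0.68, as a description across junctions that share libraries, with no p. Both values were higher for 59 members, both lower for 21, higher in S2 cells and lower in heads for 13, and the reverse for 8. Of 11 members called lower in heads with 10 or more S2 reads, 10 had an S2 ratio under 1, and 7 had an interval wholly under 1 with 0 wholly above. These 7 are Msp-300, plexA, CG6891, pAbp, Dhc93AB, vsg and betaTub56D. Of 8 called higher in heads, 7 had a ratio over 1, and 4 an interval wholly above 1 with 0 wholly below. luna, a Krüppel-like zinc finger factor, 2R:6987037-6987619, stood apart in S2 cells. Its single-exon circle had 264 RNase R reads and 386 mock reads, a ratio of 0.203 (0.173 to 0.238). In heads it had 32 RNase R and 2 mock reads, and a log2 change of 0.92 ± 0.89 (adjusted p = 0.597). unc-13, a presynaptic priming factor, had a member with 34 RNase R and 24 mock reads in S2 cells, a ratio of 0.421 (0.242 to 0.742), and 9 reads in all heads.

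**Figure D4:**
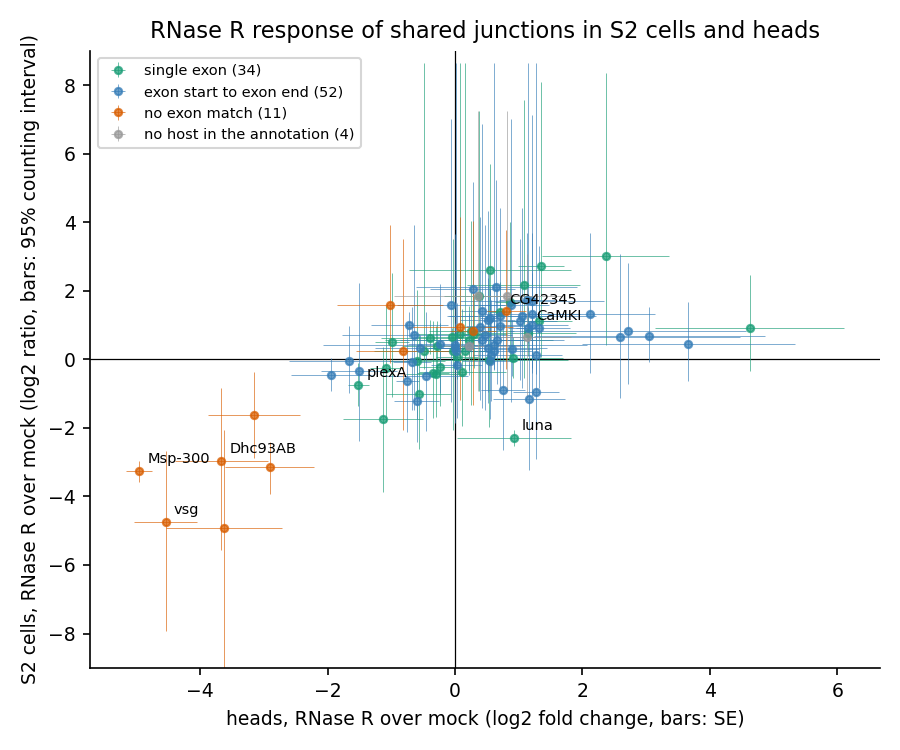
Log2 change with RNase R of the 101 shared junctions with values in both materials, in S2 cells (vertical, bars for 95% counting intervals, cut at the top of the plot, with a mock count of 0 drawn at 3 reads) and heads (horizontal, bars for the SE), coloured by match to exon ends. The Msp-300 and vsg junctions lie at the lower left, at -4.96 and -4.54 in heads.

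The genotypes were compared in RNase R heads over 1221 junctions, with the title number as a factor. Of 280 members tested, 7 were higher in slow heads and 9 lower, or 2.50% and 3.21%, against 0.901% and 2.13% of all tested (3.03% in either direction). With 50 or more reads, 10.3% of 126 members and 8.92% of all 314 junctions were called, so the members were close to the background. With RLE size factors 10 members were higher and 5 lower, and DESeq2 called 4 in all. In mock heads 0 of 89 members passed edgeR's test and 0 of all 230 junctions (0%). At an unadjusted p under 0.05 there were 6 members, and DESeq2 called 0.

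The mbl circle was higher in slow heads. It had 2081, 2011, 1396 and 1178 reads per 10000 in slow heads and 1234, 1308, 1072 and 898 in WT heads. Within each title number both slow libraries exceeded both WT libraries for 29, and also for 18, while the groups overlap when the numbers are pooled. The log2 fold change was 0.57 ± 0.15 (SE, edgeR adjusted p = 0.00731). The call was lost with TMM over all tested junctions (adjusted p = 0.0686) and without replicate 2 of WT18 (0.0989).

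pum (pumilio, a translational repressor that binds RNA) showed the clearest loss. Its junction 3R:5043709-5044485 had 7.20, 6.82, 3.27 and 4.11 reads per 10000 in slow heads and 20.2, 19.9, 17.2 and 26.9 in WT heads, with no overlap. The log2 fold change was -1.81 ± 0.35 (edgeR adjusted p = 5.68e-05). spri (sprint, an exchange factor for small GTPases), X:10469423-10470189, had 0, 2.48, 4.90 and 4.11 in slow heads and 7.90, 7.97, 18.03 and 18.5 in WT heads (-2.14 ± 0.47, adjusted p = 0.00118, but 0.0617 with DESeq2). Pkn, a protein kinase, 2R:5152995-5155481, had 51.3, 76.2, 40.8 and 45.2 in slow heads and 111, 91.6, 81.1 and 81.4 in WT heads. It also did not overlap (-0.74 ± 0.19, adjusted p = 0.00731), but lost its call with DESeq2 (0.131) and without replicate 1 of slow18 (0.107) or of slow29 (0.134).

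Spn (spinophilin, a scaffold of phosphatase 1), 3L:2540977-2541403, had 8.10, 11.8, 11.4 and 2.05 reads per 10000 in slow heads and 2.47, 0, 0 and 1.79 in WT heads. Its log2 fold change was 2.71 ± 0.55 (edgeR adjusted p = 0.000215), with 1 slow library inside the WT range. CG9935 was higher by 1.09 ± 0.28 (adjusted p = 0.00713), with 18.5 to 29.8 in slow heads and 5.74 to 20.2 in WT heads. JIL-1, a histone H3 kinase, had 11 reads in slow heads and 0 in WT heads. It passed the minimum of 10 reads on its slow reads alone, so its difference is a description. Its call was lost without replicate 1 of WT29 (adjusted p = 0.0840). sima (the fly HIF-alpha), 3R:25892797-25894142, was lower by 1.28 ± 0.31 on the log2 scale (adjusted p = 0.00333), and had 0.0534 without replicate 2 of slow29. With DESeq2 the adjusted p of sima was 0.106.

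The other calls by genotype depended on single libraries. trio (a guanine nucleotide exchange factor) had a log2 fold change of -1.60 with an edgeR adjusted p of 0.00713, and 0.0521 and 0.231 without replicate 1 or 2 of slow29 and 0.176 without replicate 2 of WT29. px (plexus) had -1.60 with 0.00775, and 0.106 and 0.189 without replicate 1 or 2 of slow29 and 0.387 without replicate 1 of WT29. CG9339 (sky, a GTPase-activating protein of synaptic vesicles) had -1.16 with 0.0163, and 0.0954 without replicate 1 of slow18, 0.399 without replicate 2 of slow29 and 0.159 without replicate 2 of WT29. CG33111 had 1.11 with 0.0126, and 0.373 without replicate 1 of slow18 and 0.260 without replicate 2 of WT18. CG17684 had -0.96 with 0.0264, and 0.567 without replicate 2 of slow29, and between 0.0603 and 0.103 without replicate 1 of slow29 or WT18 or either replicate of WT29. seq, a zinc finger factor, had 1.12 with 0.0467, and 0.379 without replicate 2 of slow29, and 0.0527 to 0.184 without replicate 2 of slow18 or WT29 or either of WT18. Ald (aldolase) had 2.91 with 0.0471, and 0.405 without replicate 1 of WT29, and 0.0755 to 0.183 without replicate 1 of slow29 or WT18 or replicate 2 of WT29, and 0.0686 with the replicate number as a block. cdi, a kinase gene named after its values were seen, had -1.38 with 0.0327, and 0.228 and 0.234 without replicate 1 of slow18 or slow29, 0.389 without replicate 1 of WT29 and 0.154 without replicate 2 of WT18. With DESeq2 the adjusted p was 0.182 for trio, 0.351 for px, 0.298 for CG9339 and 0.124 for CG33111. It was 0.510 for CG17684, 0.177 for seq and 0.419 for cdi. DESeq2 called 4 of the 16 in all. A call given here without a DESeq2 value, such as those of JIL-1 and Ald, was therefore not necessarily kept by it.

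The title numbers were compared in the same way. In RNase R heads 20 of 280 were higher in 29 and 30 lower, or 7.14% and 10.7%, against 5.65% and 9.01% of all tested by edgeR (14.7% in either direction). Junctions of Msp-300 (2L:5168404-5168504) and CG41099 (3RHet:1702561-1703293) had 0 reads in 18, and junctions of Cyp6v1 and slgA had 0 in 29. They passed the minimum of 10 reads on the other number alone, so their differences are descriptions. With 50 or more reads, 32.5% of 126 members and 31.5% of all junctions were called, again at the background. RLE size factors gave 28 higher and 25 lower, TMM over all tested junctions 30 and 24, and TMM over the 100 junctions with most summed reads 19 and 37. DESeq2 called 33. Without replicate 2 of WT18, 36 were called.

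Values are given for slow and then WT libraries within each number. CG42345 had 148, 175, 220 and 166 reads per 10000 in 29 libraries and 518, 554, 412 and 378 in 18 libraries. The groups are far apart (log2 fold change -1.45 ± 0.16, edgeR adjusted p = 8.19e-17). The mock libraries went the same way, with 113, 79.8, 181 and 92.5 in 29 and 300, 294, 203 and 320 in 18 (-1.12 ± 0.30, adjusted p = 0.0166). That call in mock libraries was lost without replicate 2 of slow29 (0.0713), of WT29 (0.0897) or of slow18 (0.0507), and with DESeq2 (0.184).

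Stim went the other way. It had 64.8, 47.1, 31.1 and 43.0 reads per 10000 in the 29 RNase R libraries and 14.7, 12.3, 13.1 and 9.57 in the 18 libraries (1.76 ± 0.26, edgeR adjusted p = 3.59e-09). In mock libraries it had 16 reads in the 29 libraries and 0 in the 18 libraries. It passed the minimum of 10 reads there on the 29 libraries alone, so the mock values are a description, and the adjusted p in mock libraries was 0.0587 to 0.131 with any 1 library left out. CG17684, 2RHet:796083-796677, had 25.2, 14.9, 43.9 and 44.6 in 29 and 9.80, 6.16, 14.7 and 6.58 in 18 (1.79 ± 0.30, adjusted p = 1.66e-07). ap (apterous, a LIM-homeodomain factor), 2R:1604154-1605271, had 20.7, 14.9, 17.3 and 21.5 in 29 and 3.27, 0, 4.92 and 5.98 in 18 (2.02 ± 0.38, adjusted p = 6.20e-06). In S2 cells its level after RNase R was 57.8, above all 8 head libraries.

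Among the other members higher in 29, CG41099 (log2 fold change 2.71), KrT95D (2.63), Pde8 (a phosphodiesterase, 1.89), the Parp junction 3RHet:1964215-1964748 (poly-ADP-ribose polymerase, 1.40) and the CG40084 junction 2RHet:3169315-3169621 (1.09) had edgeR adjusted p-values between 3.83e-06 and 0.000413. Their groups did not overlap. The other 2 Parp members were lower in 29, by 0.68 and 1.06, so circles of 1 gene differed in direction. The mbl circle was higher in 29 by 0.44 ± 0.15 (adjusted p = 0.0291), with overlapping groups.

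Members lower in 29 included CG4266, with 5.40, 8.68, 10.9 and 5.58 reads per 10000 in 29 and 24.5, 14.4, 25.4 and 29.3 in 18 (-1.65 ± 0.30, edgeR adjusted p = 3.83e-06). smi35A (Dyrk2, a kinase) fell by 2.30, cnc (the fly counterpart of Nrf2) by 1.64, CG31149 by 2.20, CG31786 by 1.999 and CG33111 by 1.49. The leading S2 junction of CG17646 fell by 1.63 ± 0.35 (adjusted p = 8.90e-05). It had 6.30, 9.30, 3.95 and 4.78 in 29 and 8.16, 10.3, 24.6 and 23.3 in 18, so that the high values were those of WT18. In mock libraries 4 of 89 members were higher in 29 and 2 lower, or 4.49% and 2.25%, against 2.17% and 2.61% of all 230 (4.78% in either direction). They were CG31619 (nolo), seq, Stim and a CG40084 junction on the higher side, and CG42345 and ps (pasilla, a splicing regulator) on the lower. seq, like Stim, had no read in the 18 mock libraries and passed on its 17 reads in 29 alone, so nothing is read from the count of 4. DESeq2 called 0 of them, and edgeR called between 0 and 4 members with 1 sample left out. The lowest count came without replicate 2 of WT29. There was 1 without replicate 1 of WT18 or WT29 or replicate 2 of slow18 or slow29, 2 without replicate 2 of WT18, and 3 without replicate 1 of slow29.

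**Figure D5:**
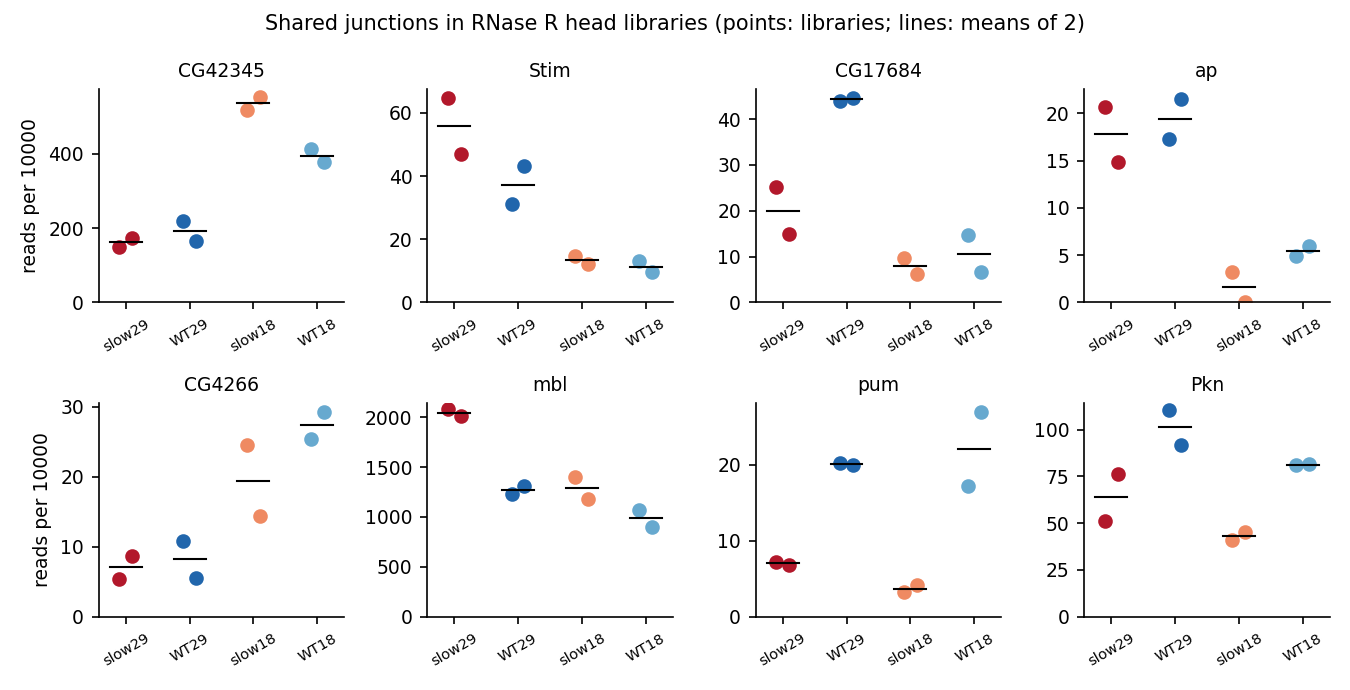
Reads per 10000 of 8 shared junctions in the RNase R head libraries (points, 2 per group, with lines for their means) of slow29, WT29, slow18 and WT18. CG42345 lies between 148 and 220 in 29 and between 378 and 554 in 18, and pum lies between 3.27 and 7.20 in slow and between 17.2 and 26.9 in WT heads.

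By gene function, members from RNA-binding and splicing genes were 31 from 13 hosts, among 60 S2 and 156 head junctions of that list. They held 3.07% of S2 RNase R reads and between 12.5% and 24.7% of RNase R head reads, most of which were from mbl. The counts by list stand beside 1.92% higher and 5.47% lower of all junctions tested with RNase R, 0.901% and 2.13% by genotype, and 5.65% and 9.01% by title number. Nothing particular to a list is read from its counts. Of 20 tested in heads, 1 was higher and 2 lower after RNase R, with a median log2 change of 0.33. Of 19 tested by genotype 1 was higher in slow heads and 1 lower, and by title number 2 were higher and 1 lower. Transcription and chromatin genes gave 33 members from 21 hosts, such as pan, foxo, luna and scro, with 3.39% of S2 RNase R reads and 3.32% to 4.47% of RNase R head reads. Of 24 tested, 0 were higher and 2 lower after RNase R with a median of 0.03. By genotype 2 of 23 were higher and 1 lower, and by title number 0 were higher and 3 lower.

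Polarity, adhesion and cytoskeleton genes gave 27 members from 16 hosts, such as Spn, spri, trio and shot, with 2.80% of S2 RNase R reads and 1.11% to 1.45% of head reads. Hosts were taken from the deposited labels, and Msp-300 was counted here by its label. Of 18 tested, 0 were higher and 1 lower after RNase R, 1 was higher and 2 lower in slow heads, and 2 were higher and 1 lower in 29. Signalling genes gave 15 members from 12 hosts, with 0.699% of S2 RNase R reads and 3.63% to 4.92% of head reads. Of 12 tested, 3 were higher and 0 lower after RNase R, 0 were called by genotype, and 2 were higher and 1 lower in 29. Membrane trafficking genes gave 3 members from 2 hosts, of which 1 (Eps-15) was higher after RNase R, 1 (CG9339) was lower in slow heads and 0 were called by title number. The lists' medians stood beside 0.41 with RNase R, -0.14 by genotype and -0.15 by title number over all junctions tested, and were 0.34 with RNase R for polarity and 0.67 for signalling genes.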

How the data were processed

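Counts of back-splice reads were deposited per junction and library in a table of S2 cells, 2 head tables (replicates 1 and 2) and a stranded table. The submitters' processing notes name CASAVA, Bowtie and build dm3. Versions, junction caller and annotation are not given in the sources used here. The smallest total per row is 2 reads, and an unlisted junction was taken as 0. Library size is the sum of listed reads, 4871 to 20254 in RNase R heads, 800 to 3427 in mock heads, and 14874 and 4421 in S2 cells with RNase R and mock. Sequencing depth is unknown, so values are relative to other back-splice reads. No molecular identifiers are described, and intervals and limits set by 3 reads cover counting error alone.

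Head tables were joined on exact position and strand. Junctions of both tables with a total of 10 reads in the libraries of a fit, and a read in 2 of these, entered edgeR 4.0.16 (limma 3.58.1, R 4.3.3) quasi-likelihood tests, two-sided, with Benjamini-Hochberg adjustment at 0.05 over all of them. TMM factors came from the 100 tested junctions with the highest mean share. The SE restates the test, as the log2 fold change over the square root of F. The fits were also run on simulated counts. Shares were compared by exact permutation tests over samples, and the 5 comparisons were adjusted together. The S2 comparison used ratios of reads per 10000 with exact 95% intervals. DESeq2 1.42.0 was an alternative. The check of replicate numbers did not pair the libraries, so only the RNase R comparison had a block, the RNA sample.

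Host symbols were matched to the RefSeq and Ensembl name tables, and junction lengths to BDGP6 exon lengths of the host. Members named are the 12 with most reads in each material, the 6 most uneven each way with 20 or more reads in each, the 8 called members with the smallest p per direction and fit, and members from the listed genes. Members and gene lists were chosen with earlier results of these data known. All 11 lists are described or counted above or in the closing part.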

Additional observations from a re-analysis of the deposited data

Results flagged for a closer look

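Within 96 sets of 4 head libraries (slow or WT, RNase R or mock) of the most abundant members, 11 had a highest or lowest library far from the other 3 by Dixon's criterion. The criterion is made to flag about 1 in 20 sets of normally distributed values. A set of low counts with reads in 1 library alone is flagged whenever it occurs, and several of the 11 are of that kind. The number of flags is therefore not compared with that rate, and no cause was tested. With RNase R, the CG17646 junction 2L:1741660-1743779 had 0.620 reads per 10000 in replicate 2 of slow29, and the junction without host label at 2L:17863937 had 2.05 in replicate 2 of slow18 and 1.20 in replicate 2 of WT18, with 0 in the other slow and WT libraries. CG11299 had 6.55 in replicate 1 of WT18. In mock libraries, where 1 read is worth several units, CG17646 had 11.3 in replicate 2 of slow18, luna had 4.43 in replicate 2 of slow29 and 3.70 in replicate 2 of WT29, and SPoCk had 9.44 in replicate 1 of slow29. The junction without host label at 3L:8548831 had 2.92 in replicate 1 of WT29, Dbp80 had 114.1 in replicate 1 of WT18, and p120ctn had 6.34 in the same library.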

How the results depend on the processing

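Counts here are of members. The 509 shared junctions became 215 with 5 or more reads in each material. With RNase R against mock in heads, 97 were called with TMM over all tested junctions and 19 with no replicate block (without the RNA sample in the model), against 30. Leaving out 1 RNA sample gave 20 to 33. By genotype in RNase R heads DESeq2 called 4, against 16, and leaving out 1 library gave 9 to 17 (9 without replicate 2 of slow29). By title number DESeq2 called 33, against 50 (31 in both), and leaving out 1 library gave 36 to 61. By title number in mock heads DESeq2 called 0 of 6, no read filter and a filter at 50 reads 1 each, and leaving out 1 library 0 to 4. In S2 cells 47 passed 2-fold, 8 with 50 or more reads, and 31 had an interval on 1 side of 1. S2 cells differed from the head range in 178 members with RNase R and in 58 in mock libraries.

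For the share of head reads in members, leaving the mbl junction out of the members alone gave 0.790 points for RNase R minus mock, -1.51 for slow minus WT and -2.53 for 29 minus 18 in RNase R libraries (the last with exact permutation p = 0.0286), and -3.11 and 0.166 in mock libraries. Leaving it out of members and totals, chosen after seeing the data, gave 2.08, 0.778, -0.469, -1.79 and 2.15. Without spans over 100 kb RNase R minus mock was 6.86 (exact p = 0.00781), slow minus WT 3.80 with RNase R (exact permutation p = 0.0571) and -1.06 in mock, and 29 minus 18 in mock 3.91 (p = 0.2). Leaving out 1 sample gave 2.42 to 3.92, 2.95 to 4.80, 1.57 to 3.68, -0.576 to 2.85 and 3.34 to 5.55 points in the same order. With sign flips within pairs of the same number, a replicate block also added after seeing the data, the 3.87 and 4.68 points had an exact p of 0.125, the smallest 4 pairs allow.

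Replicate numbers did not pair libraries: deviations from group means correlated by -0.00313 to 0.203 with RNase R and -0.227 to 0.250 in mock libraries. With a replicate block, 16 members were called by genotype in RNase R heads, 15 of them also called without it (Ald was lost), and 49 and 5 by title number in RNase R and mock heads, all of them also called without it. None of the 53 named calls changed sign under any alternative. Of these, 29 kept the call under every alternative that gave them a result. The call was lost by 20 with 1 library or RNA sample left out, by 16 with DESeq2 and by 10 under another scaling. A call without a result under an alternative was not counted as lost. With DESeq2 35 of the 53 kept the call, and with 50 or more reads 40 did. The cause of the losses was not tested. Mock heads with 800 to 3427 listed reads limit what can be tested there.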

Other observations

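Some abundant hosts gave many S2 junctions and few shared ones. Ef2b, the gene of translation elongation factor 2, had 31 junctions in S2 cells, 10 in heads and 5 in both, and CG17514 had 14, 13 and 4. By contrast all or most S2 junctions of pan, pum, ct (the homeodomain factor cut), msi (musashi, an RNA-binding protein) and CG32791 were in heads. They were 8 of 8, 5 of 5, 5 of 5, 5 of 7 and 5 of 5, against 39.8% of all S2 junctions. These are a few of 347 hosts, so nothing is read from them. The head-only junctions of mbl numbered 28 of 30, and its 2 shared junctions held 14011 of the 14368 mbl reads in RNase R heads.

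Hemocyte and S2 cell marker genes gave members with few reads. Pxn (peroxidasin) had members with 11 and 4 S2 RNase R reads and 9 and 7 reads over the 8 RNase R heads. A srp member had 12 S2 RNase R reads and 3 in those heads, and a zfh1 member had 10 and 6. Together the 7 members of that list held 0.316% of S2 RNase R reads and 0.0327% to 0.151% of RNase R head reads. The 4 members from synaptic genes held 0.719% of S2 RNase R reads and 0.582% to 1.01% of head reads, and the 2 from photoreceptor genes 0.0403% and at most 0.0179%.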
